A study of Saccharomyces cerevisiae with 26 samples.

Results

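Long gaps were stretches of at least 1000 bp between successive entries, on the same strand of a nuclear chromosome, of a list of A-rich sites that a yeast study excluded from its maps of RNA 3′ ends. They were chosen by the length of the gap, and 462 of 221666 nuclear gaps (0.208%) qualified. The study mapped RNA 3′ ends in S. cerevisiae strains Mex67-AA and Nab2-AA, in which rapamycin tethers the named nuclear factor outside the nucleus (anchor-away). The labels describe 26 libraries of total RNA and of RNA purified after a labeling pulse of 2 min with 4-thiouracil (4tU), made with (pA+,-) or without (pA+) in vitro polyadenylation by E-PAP. Cells had received no rapamycin or 15 min of rapamycin in both strains, and 2 libraries were mock purifications from Mex67-AA cells without 4tU. Each 4tU group of pA+,- libraries had 3 libraries and each other group had 1. The list was drawn from the genome sequence of sacCer3 alone, so strain, rapamycin and replicate have no value in it and no 3′ end signal was analysed here.

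Sequencing of RNA 3′ ends relies on a poly(A) tail, which a primer made of Ts recognizes. The same primer can anneal to As that are encoded in the genome, and a read then reports a 3′ end at which no RNA ends. Lists of A-rich positions guard against this internal priming. They act on each strand separately, because the primer sees the sequence of the RNA, and a gap is a stretch in which the list removes no 3′ end of that strand. In yeast, the sense strand of genes is rich in purines, among other things through the codons of lysine and glutamate, and its complement is therefore rich in pyrimidines.

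The sequences at the edges of long gaps show what ends them, and are given from the R64 reference for the longest gap, in FLO11 (chrIX:389449-392753, minus strand), a gap in FLO1 (chrI:204016-207044, plus strand), a gap opposite to NUM1 (chrIV:757347-760204, minus strand) and a gap in TAT2 (chrXV:286132-287697, plus strand). Each sequence starts with a position of the list, and capitals mark the 6 bases downstream of it.
FLO11, last masked position before the gap: aAGAAGActactactccagtaccaa
FLO11, first masked position after the gap: cAGAAAActacccgtagaatacata
FLO1, last masked position before the gap: gAAGGAAccgtctatatgtacgctg
FLO1, first masked position after the gap: cAGGAAActgcttcttcattaccac
NUM1, last masked position before the gap: cAGAGAAttttttagtctttcatat
NUM1, first masked position after the gap: tAGAAAGtctatcgttgggttcttt
TAT2, last masked position before the gap: tGAAGAAcataagctaagcaaatta
TAT2, first masked position after the gap: cAAAGAAagggctaaaatatttttt

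In each of these 6-base windows there were 4 or 5 As and neither C nor T. The same held for most of the 924 edges. In windows free of C and T, 589 edges (63.7%) had 4 As in 6 bp and 278 (30.1%) had more than 4, and the other 57 (6.17%) had 12 As in the 18 bp downstream. The criteria as written by the study ask for more than 4 As in 6 bp or more than 12 in 18 bp. Thus 30.1% of the edges met a written criterion. The mismatch was also present in the whole list, where the written criteria selected 292021 of the 644531 masked nuclear positions. That is a larger share than the 30.1% of edges, so the mismatch was more frequent at edges. The entry at the edge was a single position at 527 edges (57.0%), whereas 44.7% of all nuclear entries were single positions.

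Inside a gap, As were present but interrupted. The windows with the most As inside the same gaps are given with the 18 bases downstream of the position in capitals.
FLO11, most As inside the gap: cCAAAGACCATTACAACTActgttc
FLO1, most As inside the gap: gTAATCAGAACACCAACAAcagcca
NUM1, most As inside the gap: cAACGTAGGAGAATTGAAAttgctg
TAT2, most As inside the gap: cACCATAAAAGCAATAACAgtttgc

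These windows held 9 As in FLO11, 10 in FLO1, 9 opposite to NUM1 and 11 in TAT2. Over all long gaps, the highest number of As in any 18-base window was 8 in 35 gaps, 9 in 55, 10 in 199 and 11 in 173. The count is bounded by the list itself and is given as a description. On the strand of the gap, base composition was 24.9% A, 20.9% C, 19.1% G and 35.1% T. Over both strands of the nuclear genome, A and T made up 30.9% each and G and C 19.1% each. Relative to the genome, long gaps had less A and more T, and nearly the same G.

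Nuclear gaps had a median of 59 bp, a mean of 105.9 bp and a 99th percentile of 655 bp. Long gaps ranged from 1001 to 3305 bp with a median of 1176 bp and quartiles of 1065 and 1380 bp. Of them, 158 were shorter than 1100 bp, 89 reached 1500 bp and 27 reached 2000 bp. The counts thinned out steadily towards the threshold, and 4662 gaps measured from 500 bp up to the threshold. Just inside the threshold lay a gap of 1001 bp opposite to SUB1, a transcriptional coactivator, one of 1001 bp opposite to SKO1, a repressor of osmotic stress genes, and one of 1002 bp opposite to HSP104, a disaggregase. Just outside it lay a gap on XIII without a gene, one of 998 bp opposite to the Ty3 genes YGR109W-A and YGR109W-B, and one of 998 bp opposite to PUT1, proline oxidase.

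**Figure D1:**
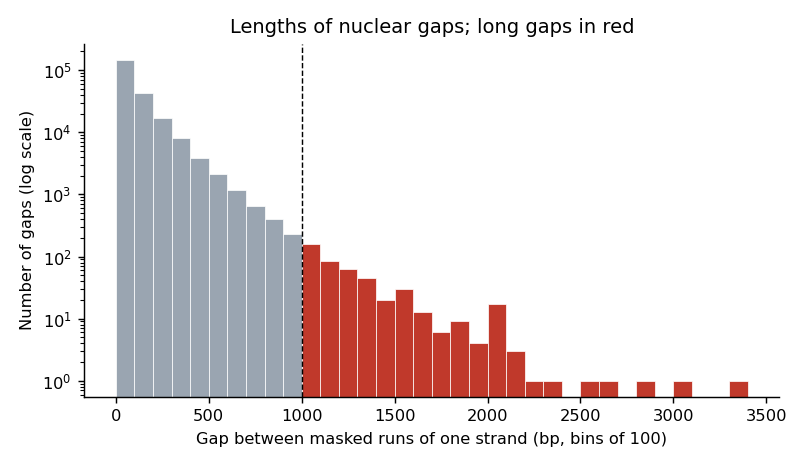
Number of nuclear gaps (log scale) by length in bins of 100 bp, with the 462 gaps of at least 1000 bp in red and the threshold as a dashed line. Counts fall without a break at the threshold, and the bar at 2000 bp includes 13 copies of a stretch of 2037 bp in Ty1 elements.

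The plus strand had 233 long gaps and the minus strand 229. Their total length was 596121 bp, which is 2.47% of the 24142652 strand positions of the nuclear genome. Every chromosome had them, from 12 on VI to 62 on IV. Relative to its size, chromosome I had the most, with 5.97% of its strand positions in long gaps, and XI the least, with 1.40%. On I, 4 of the 17 long gaps lay in or opposite to FLO1 and FLO9.

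Most long gaps lay across from genes. Coding sequence was on the opposite strand of 78.5% of their positions and on the same strand of 11.5%, whereas each makes up 36.2% of all strand positions. The difference was 62.5 percentage points on average over chromosomes (SD 16.3, n = 16 chromosomes), between 31.0 on IX and 87.6 on XVI, and positive on 16 of 16. Without the gaps in Ty elements it was 57.0 points. The list masks 3.07% of the sense and 1.01% of the antisense positions of coding sequence, and a gap was chosen for having no masked position on its own strand. The side to which the gaps lean follows from that choice, so the values are a description and no p is given.

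Orientation changed with gap length over the whole list. In gaps of 1 to 99 bp, 52.9% of positions had coding sequence on the same strand and 16.1% on the opposite strand. From 250 to below 500 bp the order had turned, with 27.6% and 47.2%. From 500 bp up to the threshold the shares were 14.7% and 67.8%, and in long gaps of up to 1483 bp they were 10.1% and 79.0%. In the 89 gaps of at least 1500 bp, the same-strand share was 15.2% and the opposite-strand share 77.3%. These shares are a description and were not tested.

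**Figure D2:**
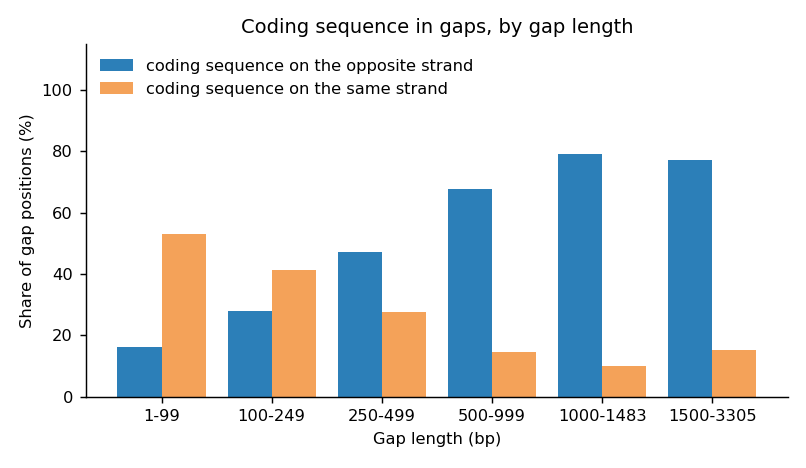
Share of gap positions (%) with coding sequence on the opposite strand (blue) and on the same strand (orange), by gap length in bp. The opposite-strand share rises from 16.1% to 79.0% up to 1483 bp, while the same-strand share falls from 52.9% to 10.1% and is 15.2% in the longest class.

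By what they mainly covered, 310 long gaps (67.1%) lay opposite to coding sequence, 86 (18.6%) in Ty elements, 47 (10.2%) on the same strand as coding sequence, 5 in telomeric regions, 2 in the rDNA and 12 in none of these or in a mixture. Ty elements, the retrotransposons of yeast, made up 20.3% of long gap positions and 2.41% of all strand positions. Telomeric regions made up 4.88% and 1.17%. Genes for tRNAs had 0.0502% of long gap positions against 0.182% of all, and no snRNA or snoRNA position (0.132% of all) and no centromere position (0.0156% of all) was in a long gap. Positions in none of the annotated features made up 7.03% of long gaps and 25.8% of the genome.

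Of the 10 longest gaps, 5 lay on the same strand as the gene and 5 opposite to it. FLO11, an adhesin of the cell wall needed for filamentous growth, had the longest, with 3305 bp that included 77.5% of its coding sequence. The flocculins, lectin-like cell wall proteins through which yeast cells stick together, followed with 3029 bp in FLO1, 2681 bp in FLO9 and 2255 bp in FLO10. HKR1, a mucin-like sensor of the osmotic stress pathway, had 2167 bp. Opposite to a gene lay the gaps of 2858 bp at NUM1, which anchors dynein at the cell cortex, of 2598 bp at FLO1, of 2319 bp at REA1, an ATPase of ribosome assembly, of 2163 bp at FLO9 and of 2111 bp at ECM16, a helicase of 18S rRNA processing.

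Several of the longest gaps spanned tandem repeats. Shifted by 135 bp, 78.3% of the bases of the FLO1 gap and 70.3% of those of the FLO9 gap were identical to themselves. The best shift was 192 bp at NUM1, with 73.0% identical bases, 84 bp at HKR1 with 60.5%, 45 bp at FLO11 with 49.5% and 189 bp at FLO10 with 48.5%. For REA1 and ECM16, the best shifts gave 37.0% and 31.2%. The repeats of FLO11 and FLO1 are shown by the middle 180 bases of their gaps, on the gap strand and with As in capitals.
FLO11, chrIX:391011-391190, minus strand: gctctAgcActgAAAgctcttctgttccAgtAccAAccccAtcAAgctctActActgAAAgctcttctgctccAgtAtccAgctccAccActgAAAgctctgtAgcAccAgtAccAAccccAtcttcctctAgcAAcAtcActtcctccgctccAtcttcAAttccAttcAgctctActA
FLO1, chrI:205440-205619, plus strand: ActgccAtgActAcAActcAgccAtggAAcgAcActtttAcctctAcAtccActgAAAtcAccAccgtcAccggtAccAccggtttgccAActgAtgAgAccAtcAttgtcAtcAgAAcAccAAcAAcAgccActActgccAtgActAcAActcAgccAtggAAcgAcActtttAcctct

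The FLO11 stretch had 44 As among 180 bases and 116 Cs or Ts, and the FLO1 stretch had 55 As and 100 Cs or Ts. The longest run of As in either was 3. On the strand opposite to the FLO11 stretch 2 positions were masked, and opposite to the FLO1 stretch none was.

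Several of the gaps on the same strand as a gene covered genes of the cell wall. With at least 50% of the coding sequence in long gaps taken as the threshold, 40 of 6002 genes (0.666%) qualified on the same strand, and 39 of them reached it with a single gap. Of 34 flocculins and serine- and threonine-rich cell wall proteins, 14 (41.2%) did. These were FLO1, FLO5, FLO9, FLO10 and FLO11, the mannoprotein FIT1, which helps retain siderophore iron, the mannoproteins DAN1, DAN4, TIR3 and TIR4, the agglutinin anchor AGA1, and the sensors MSB2, WSC2 and WSC4. FIT1 and DAN1 lay in a gap over their whole length, TIR3 over 84.6%, TIR4 over 78.0%. MSB2 reached 54.6% with 2 gaps, of 26.4% and 28.1%. Of the 34 genes, 17 had any position in a long gap on the same strand, compared with 82 of all 6002 genes. The lowest share among these 17 was 39.8%, in HPF1, and the others of the group had 0%. The group median of 19.9% is the midpoint of these 2 values and is not the share of any gene. The median of all genes was 0%. The group was put together with earlier results of this list known, and its count is a description.

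Membrane transport proteins were counted by family. Over all genes, 0.666% passed the threshold on the same strand and 3.82% on the opposite strand. Of 20 amino acid permeases, 3 (15.0%) passed the threshold on the same strand, namely the tryptophan permease TAT2 with 85.8%, the proline permease PUT4 with 81.3% and the S-methylmethionine permease MMP1 with 66.9%. None of 19 hexose transporters had a position in a long gap on either strand. None of 21 ABC transporters and none of 16 P-type ATPases passed on either strand. Opposite to them, gaps reached over 47.6% of MDL2, 28.6% of BPT1, 23.3% of the a-factor exporter STE6, and 28.7% and 21.4% of the flippases DRS2 and DNF1. Whether the families differ was not tested.

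On the opposite strand, 229 of 6002 genes (3.82%) had at least 50% of their coding sequence across from long gaps, 195 of them across from a single gap. Of the 229, 32 were among the 90 Ty genes, and some of these are overlapping reading frames of the same element. In the cell wall group 3 of 34 genes (8.82%) passed, namely FLO1 with 56.3%, FLO9 with 54.5% and FIT2 with 81.2%. Of 21 glycolytic enzymes it was the glucokinase GLK1 alone (4.76%), with 67.3%. Among genes of at least 1000 bp, the largest that lay whole across from a gap were RRP14 of ribosome synthesis with 1305 bp, the proteasomal ATPase RPT3 with 1287 bp and the septin CDC12 with 1224 bp. DEP1 of the Rpd3L histone deacetylase, the mitochondrial CDP-diacylglycerol synthase TAM41, the splicing factor SLU7, the biotin synthase BIO2, YMR114C and the xylitol dehydrogenase XYL2 were also covered whole. In total, 45 genes lay whole across from a long gap and 9 lay whole in one on their own strand, and 481 genes had at least 1 position in a long gap.

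Codons in long gaps depended on the strand. Where the gap was on the strand of the gene, lysine made up 2.16% of 22808 codons, compared with 7.34% of the codons of all genes, and serine and threonine together made up 34.7% compared with 14.9%. Codons of purines alone made up 6.87% compared with 16.9%, and codons of pyrimidines alone 14.5% compared with 9.97%. Phenylalanine, whose codons are all pyrimidine, was at 3.83% compared with 4.43%. Where the gap was across from the gene, lysine made up 8.41%, purine codons 19.1% and pyrimidine codons 7.29% of 162046 codons, each on the other side of the value of all genes. Serine and threonine together made up 15.9% there and phenylalanine 2.63%. Single genes varied widely. Serine and threonine made up 60.2% of the codons of DAN4 that lay in its gap, 55.2% in FLO11 and 45.4% in FLO1, while lysine made up 0.908%, 1.42% and 0.396%. Across from the gaps at MLP2 and SLU7, lysine made up 13.0% and 13.1%. Across from those at FLO1 and FLO9 it made up 0.116% and 0.555%, with 44.9% and 41.2% serine and threonine. Base composition determines the list, so these shares are a description of what was chosen.

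In the same intervals, the opposite strand was masked more than elsewhere. It held 24190 masked positions, or 4.06%, and outside long gaps the share was 2.63%. Over the whole list this share rose with gap length and was not particular to long gaps. It was 1.58% in gaps of 1 to 99 bp, 3.13% from 250 to below 500 bp and 3.51% from 500 bp up to the threshold. In long gaps of up to 1483 bp it was 3.96%, and in those of at least 1500 bp 4.31%. The mean difference between long gaps and the positions outside them was 1.33 percentage points over chromosomes (SD 0.651, n = 16 chromosomes). It was positive on 15 of 16 (exact two-sided permutation of the signs of the chromosomes, p = 6.1e-05, and p = 6.1e-05 after Benjamini-Hochberg adjustment for 2 tests). The choice of gaps on their own strand places most of them opposite to sense strands, which the list masks more. This p therefore does not separate the difference from that choice. The difference was largest on XI, at 5.06% and 2.71%, and smallest among the positive ones on VIII, at 2.93% and 2.62%. On I it was -0.252 points, with 2.36% in the intervals and 2.61% outside. The intervals of FLO1 and FLO9 lie on I, and their part in its value was not tested. With the list recomputed from the written criteria the mean difference was 0.164 points, and with single positions not ending a gap it was 0.808.

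**Figure D3:**
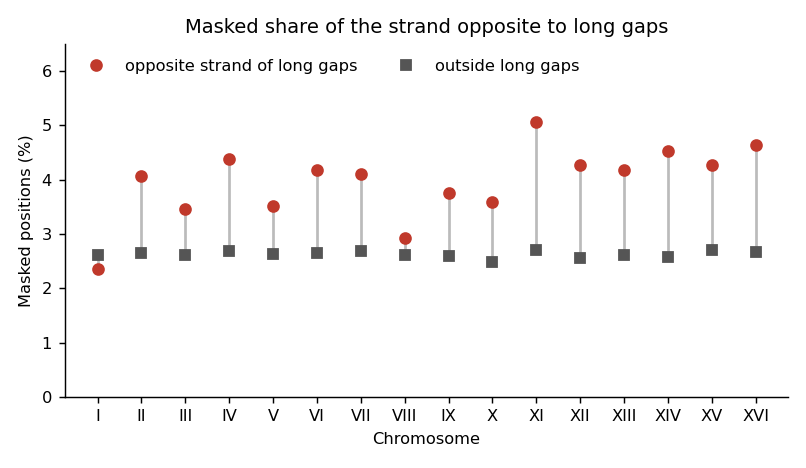
Masked share (%) of the strand opposite to long gaps (red circles) and of all strand positions whose opposite strand is outside them (grey squares), for each of the 16 nuclear chromosomes. The circle lies above the square on 15 chromosomes, and on I it lies below, at 2.36% and 2.61%.

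Long gaps also differed from the genome in orientation and base composition. The opposite strand of a long gap is mostly the sense strand of a gene, and it had 35.1% A. Where coding sequence was on the opposite strand alone, 4.29% of the opposite positions were masked in long gaps and 3.01% outside them. Restricted to such positions, the difference was 1.27 points on average and positive on 16 of 16 chromosomes (same exact permutation, p = 3.1e-05), a comparison chosen after the data were seen. This is the smallest p that the test can give with 16 chromosomes. The positions still belong to gaps chosen on their own strand, so this p does not separate the difference from that choice either. Where coding sequence was on the gap's own strand alone, the shares were 1.61% and 1.01%, and where there was none, 4.99% and 4.29%. The part of base composition in the difference was not tested.

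Single gaps ranged from 0% to 16.2% on the opposite strand, with a median of 3.53% and quartiles of 1.96% and 5.05%. In 299 of them the share was above the 2.63% found outside, in 120 it was above 5% and in 16 above 10%. The 5 highest were 16.2% at IFH1, a coactivator of ribosomal protein genes, 168 of 1047 positions at the rRNA processing factor PXR1, 15.8% at FUN12, the translation factor eIF5B, 15.6% at the 60S assembly factor NOP53 and 15.4% at EAF7 of the NuA4 acetyltransferase. All 5 gaps lay opposite to the gene. The 310 gaps opposite to coding sequence had a pooled share of 4.65%, the 86 in Ty elements 3.61% and the 47 on the same strand as coding sequence 1.86%.

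**Figure D4:**
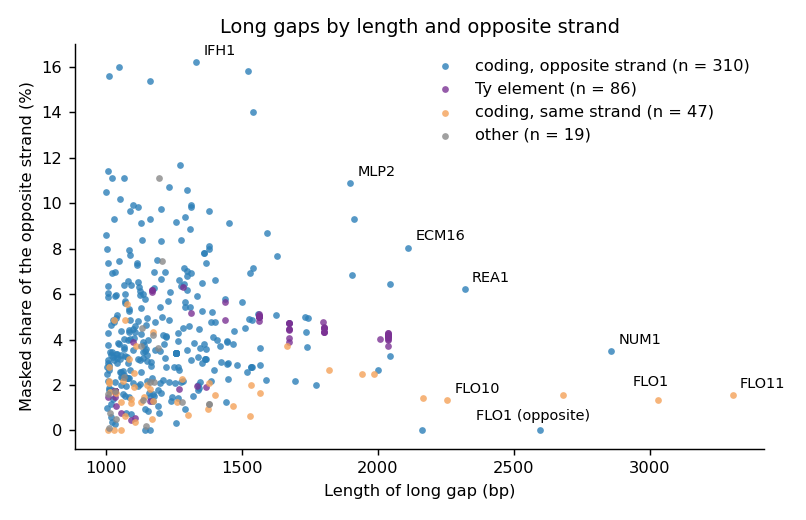
Each long gap by length (bp) and by the masked share of the opposite strand (%), coloured by what it mainly covers. The 5 highest points lie at 15.4% to 16.2% and opposite to coding sequence, while gaps on the strand of the gene (orange) stay between 0% and 5.57%.

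The coding strands across from the gaps at NUM1 and MLP2, a filament protein of the nuclear pore, show a share near the median of long gaps and a high one. The middle 180 bases are given on the coding strand, and capitals mark the masked positions.
NUM1, chrIV:758686-758865, plus strand: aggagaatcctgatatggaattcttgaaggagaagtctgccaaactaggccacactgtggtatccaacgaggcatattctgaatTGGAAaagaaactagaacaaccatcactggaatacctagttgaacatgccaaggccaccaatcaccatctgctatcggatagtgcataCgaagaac
MLP2, chrIX:65619-65798, minus strand: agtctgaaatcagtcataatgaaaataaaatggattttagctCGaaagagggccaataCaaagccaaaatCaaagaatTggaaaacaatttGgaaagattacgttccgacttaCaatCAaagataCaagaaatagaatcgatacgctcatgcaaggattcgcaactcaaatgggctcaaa

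Of the 180 bases, 6 were masked at NUM1 and 10 at MLP2, and As made up 35.6% and 43.9%. Over the whole gaps the shares were 3.50% and 10.9%. The gap strand had no masked position in either stretch.

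In 7 long gaps no position of the opposite strand was masked. Within long gaps, 7 intervals of at least 1000 bp were free on both strands at once, out of 216916 intervals of any length in the nuclear genome that were free on both strands. They measured 2598 bp in FLO1, 2163 bp in FLO9, 1160 bp in FLO5, 1143 bp in HKR1, 1055 bp in YBL113C, a reading frame near the left end of II, 1029 bp in YAT1, a carnitine acetyltransferase, and 1005 bp in PHO4, the activator of phosphate starvation genes. All 7 of these genes thus had long gaps on both strands. In all, 10 pairs of a plus-strand and a minus-strand long gap overlapped, over 11409 positions.

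Ty elements carried long gaps on the strand opposite to the element only. All 31 Ty1 elements had at least 1 and together had 66, the 13 Ty2 elements had 13, the 2 Ty3 elements had 4 and the 3 Ty4 elements had 3. The single Ty5 element had none. Gaps of the same length recurred at the same place of many elements. A gap of 1032 bp that began 1050 to 1164 bp from the 5′ end of the element was found in 29 Ty1 elements, and one of 2037 bp that began 3373 to 3382 bp from it in 13. The opposite strand, which is that of the element's RNA, was masked at 1.45% to 1.74% in the former and at 3.73% to 4.27% in the latter. In Ty2, 10 elements shared a gap of 1563 bp with 4.80% to 5.12%.

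Long gaps shared sequence within and outside Ty elements. Grouped by shared 20-base words (at least 50% of the words of the shorter gap), 108 of the 462 long gaps fell into 9 groups and 354 were alone. In the groups of Ty1 gaps, 2 gaps on XII lay outside the annotated elements. The groups without a Ty element were that of the Y′ elements, that of FLO1 and FLO9, and that of the 25S rRNA. Opposite to both annotated copies of the 25S rRNA lay a gap of 1380 bp with 1.16% of the opposite positions masked. At 1 of the copies it included 62.7% of TAR1, a small gene encoded antisense to the 25S rRNA. Copies are not independent, and since they lie on several chromosomes, the chromosomes used as units of the tests share sequence too. Without the gaps in Ty elements and the 2 that share their sequence, the difference in the masked share of the opposite strand was 1.41 points (same exact permutation, p = 9.2e-05). The groups without a Ty element stayed in this comparison, so chromosomes with Y′ copies still shared sequence.

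In the outermost 10 kb of the chromosomes, most long gaps shared the sequence of the subtelomeric Y′ element. The distance of long gaps from the nearer end ranged from 709 to 763869 bp with a median of 205570 bp. Within 10 kb of an end lay 21 of them (4.55%), in a zone with 2.65% of the strand positions, and 19 of the 21 belonged to the group that shares sequence with the gap at the Y′ gene YRF1-1. From 10 to 30 kb there were 24 long gaps (5.19%) for 5.30% of the positions, and from 30 to 50 kb 29 (6.28%) for 5.30%. In the outermost 10 kb, 4.24% of the strand positions were in a long gap, and 0.327% without the 19 copies. Beyond 50 kb the share was 2.36%. These shares are given without a test. Of the 64 stretches between a chromosome end and the first or last entry, which are not gaps between entries, 3 reached 1000 bp and the longest measured 1210 bp.

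**Figure D5:**
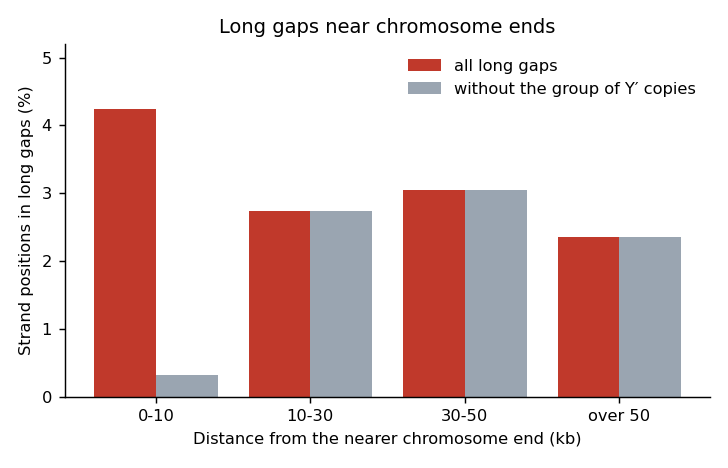
Share of strand positions (%) that lie in long gaps, by distance from the nearer chromosome end in kb, for all long gaps (red) and without the group of 19 Y′ copies (grey). In the outermost 10 kb the share is 4.24% with and 0.327% without the copies, and in the other zones it is 2.74%, 3.05% and 2.36%.

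The Y′ copies also had like positions and lengths. The 8 annotated YRF1 genes, which encode its helicase, each had a gap of 1256 bp on the opposite strand, at 1245 to 7965 bp from the end, with 43 masked positions across from it. It reached over 22.5% to 30.3% of the coding sequence. The closest long gap of all lay 709 bp from the left end of VI, on the strand of YFL067W, and had 43 masked positions on the opposite strand. Next came those at YRF1-1, at YEL077C on V with 1286 bp, at YRF1-7 with 1299 bp and at YRF1-5 with 1302 bp.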

How the data were processed

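The authors deposited 1 list with 223663 runs of strand-specific masked positions of sacCer3, with no score and no sample column. According to the methods, positions likely to be primed internally were listed from the genome sequence after criteria of Roy et al., and removed from the tracks with bedtools. The labels name STAR, SAMtools 1.3 and HTSeq 0.6.0 for the reads, which were not used here. Having no reads, the list has no depth and no replicates, and counts and shares from it carry no counting error. The reference was R64, and 100% of the 221698 nuclear runs lay within its chromosome ends.

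Runs were sorted by chromosome, strand and start, and long gaps are gaps of at least 1000 bp on the 16 nuclear chromosomes. Coding sequence, Ty elements, telomeres and RNA genes came from the R64 annotation. Shares inside and outside long gaps were compared by exact sign-flip permutation over chromosomes, two-sided, with p-values of 2 tests adjusted by the Benjamini-Hochberg method and called at 0.05. The other of the 2 tests, on the orientation to coding sequence, is not reported, because the choice of the gaps fixes its side. Named genes are those of the 10 longest gaps, of the 5 nearest an end, of the 5 highest and 5 lowest opposite shares, of the longest intervals free on both strands and next to the threshold, the 10 genes of at least 1000 bp most covered, and members of gene groups with at least 50% covered. MLP2 and other genes named as examples outside this rule were picked with their values in view. The long gaps and the gene groups were chosen with earlier results of these data known. Alternatives changed the minimum length, the runs that end a gap, the criteria, the reference positions and the chromosomes, genes or gaps that enter. Calculations used Python 3.11.15, numpy 2.4.6 and pandas 2.3.3, and figures matplotlib 3.10.9. The scripts were tested on simulated data with planted gaps.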

Additional observations from a re-analysis of the deposited data

How the results depend on the processing

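The number of long gaps depended on what ends a gap. It was 1102 with a minimum of 800 bp and 89 with 1500 bp, 2555 when single positions did not end a gap and 2631 with the list recomputed from the written criteria. It was 465 with the stretches at chromosome ends and 376 without gaps in annotated Ty elements, or 374 without 2 further gaps that share their sequence. The higher masked share of the opposite strand kept its direction and its side of the threshold in 11 of 11 alternatives, between 0.164 and 1.81 percentage points (exact sign-flip permutation test, highest p = 0.00049), and the orientation difference, whose side the choice of gaps fixes in every setting, was between 42.5 and 68.1 points. Leaving out each chromosome in turn gave 1.26 to 1.43 and 60.9 to 64.6 points. The choice of gaps bears on the masked share too in every setting, and the p-values do not separate the share from that choice. The alternatives without Ty elements, with coding sequence on the opposite strand alone and without each chromosome were chosen after seeing the data. No paired analysis was possible because the list has no sample columns and no replicate numbers, and the shares were compared within chromosomes instead. Long gaps share sequence between copies, and chromosomes differ in length, so a short chromosome counted as much as a long one.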
